A study of Mus musculus with 12 samples.

Results

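Complement is a set of plasma proteins, made in part by cells of the tissue itself, that mark debris, synapses and microbes for removal and call in phagocytes. Here 9 complement genes were followed in white matter of the mouse spinal cord: the C1q chains C1qa, C1qb and C1qc, the central components C3, C4b and Cfb, the anaphylatoxin receptors C3ar1 and C5ar1, and the inhibitor Serping1. They were the rows of the count table, 9 of 46078 gene identifiers, whose Ensembl gene carries one of these symbols. The tissue was ventrolateral white matter of C57Bl6 mice, freed by laser capture microdissection and sequenced as RNA from naïve and injured mice that were young or middle-aged, in 4 groups of 3 libraries. Young mice were 6 weeks and middle-aged mice 8 months old by the study's methods, while the labels give no age in numbers. Injured mice had been given lysolecithin, a detergent-like lipid that strips myelin, in the same white matter 72 h (day 3) earlier, whereas naïve mice had no lesion, so that surgery, injection and lysolecithin cannot be told apart. Each library, called a pool below, held RNA of 5 mice, and no source states whether the 3 pools of a group held different mice, so that p-values measure the spread between pools only.

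In the classical pathway, C1q binds its target and the attached proteases cleave C4 and C2, which together form the enzyme that cleaves C3. In the alternative pathway, factor B, the product of Cfb, joins C3b in a second C3-cleaving enzyme that amplifies the first. The small fragments C3a and C5a act on the receptors encoded by C3ar1 and C5ar1, and Serping1 encodes the C1 inhibitor, which blocks the C1 proteases. In the central nervous system, microglia are the best known source of C1q, and reactive astrocytes and infiltrating myeloid cells are known to make C3 and C4.

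The depth was 9834447 to 12807437 counts per pool. Levels are given as CPM, counts relative to the library total, per 1e6, scaled by edgeR's TMM factors, and a floor of 3 counts came to 0.234 to 0.305 CPM before that scaling. Markers of oligodendrocytes such as Mbp and Mog summed to between 86699 and 101953 CPM in young naïve pools, to between 53009 and 60301 CPM in middle-aged naïve pools, and to between 7930 and 20256 CPM in injured pools of either age. Of the lists of cell type markers, 6 of 6 pan-myeloid genes (Ptprc, Aif1, Csf1r, Tyrobp, Fcer1g and Cd68) rose with injury at both ages. Their sum was 75.9 to 105 CPM in young naïve, 120 to 163 in middle-aged naïve, 1500.5 to 1536 in young injured and 1565 to 2056 in middle-aged injured pools. The 6 microglia markers (Tmem119, P2ry12, Sall1, Siglech, Gpr34 and Cx3cr1) were mixed. In young mice 3 rose with injury (Tmem119, Cx3cr1 and Gpr34) and 1 fell (Sall1). In middle-aged mice 2 rose (Cx3cr1 and Gpr34) and 2 fell (Siglech and Sall1). The shares of all genes that rose or fell are given below. Middle-aged naïve replicate 2 stood apart in several of the genes below, and values without it are given where it matters. In tissue RNA such as this, more cells of a type and more RNA per cell cannot be told apart.

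After injury the C1q chains, both anaphylatoxin receptors and the C1 inhibitor were higher, and C3 was lower. In young mice, 6 of the 8 tested members rose (C1qa, C1qb, C1qc, C3ar1, C5ar1 and Serping1) and 1 fell (C3), whereas 28.3% of all 15866 genes tested rose and 26.3% fell. In middle-aged mice the same 6 rose and both C3 and C4b fell, against 29.2% of all genes that rose and 29.3% that fell. The median log2 fold change of the 8 was 3.78 in young and 3.02 in middle-aged mice, beside 0.00054 and -0.032 over all genes tested. Cfb had too few counts for a test. Calls are at an adjusted p under 0.05 by edgeR's quasi-likelihood test, with Benjamini-Hochberg adjustment over all genes tested, and both ages' calls stood at 7 or 8 members under every other setting and with any pool left out.

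Age differences were called in naïve tissue, and how many were called at either state depended on which pools were fitted. In naïve white matter, 5 of the 8 were higher in middle-aged than in young pools (C1qc, C3, C4b, C3ar1 and C5ar1) with none of the 8 estimates below 0, against 2.02% of all genes that were higher and 1.78% that were lower. In injured white matter, 0 of the 8 passed the threshold by edgeR's test, where 1.15% of all genes did in either direction, and DESeq2 also called 0. At an unadjusted p under 0.05 there were 2, C3ar1 and Serping1, where 1527 of all 15866 genes were. When only the pools compared were fitted, 1 of the 8 was called with age in naïve mice (C4b), beside 71 of 14401 genes tested. In injured mice such a fit called 3 (C3ar1, C5ar1 and Serping1), beside 818 of 15048 genes tested. The difference of the injury effects between the ages passed for 1 of the 8, C4b, against 0.139% of all genes.

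**Figure D1:**
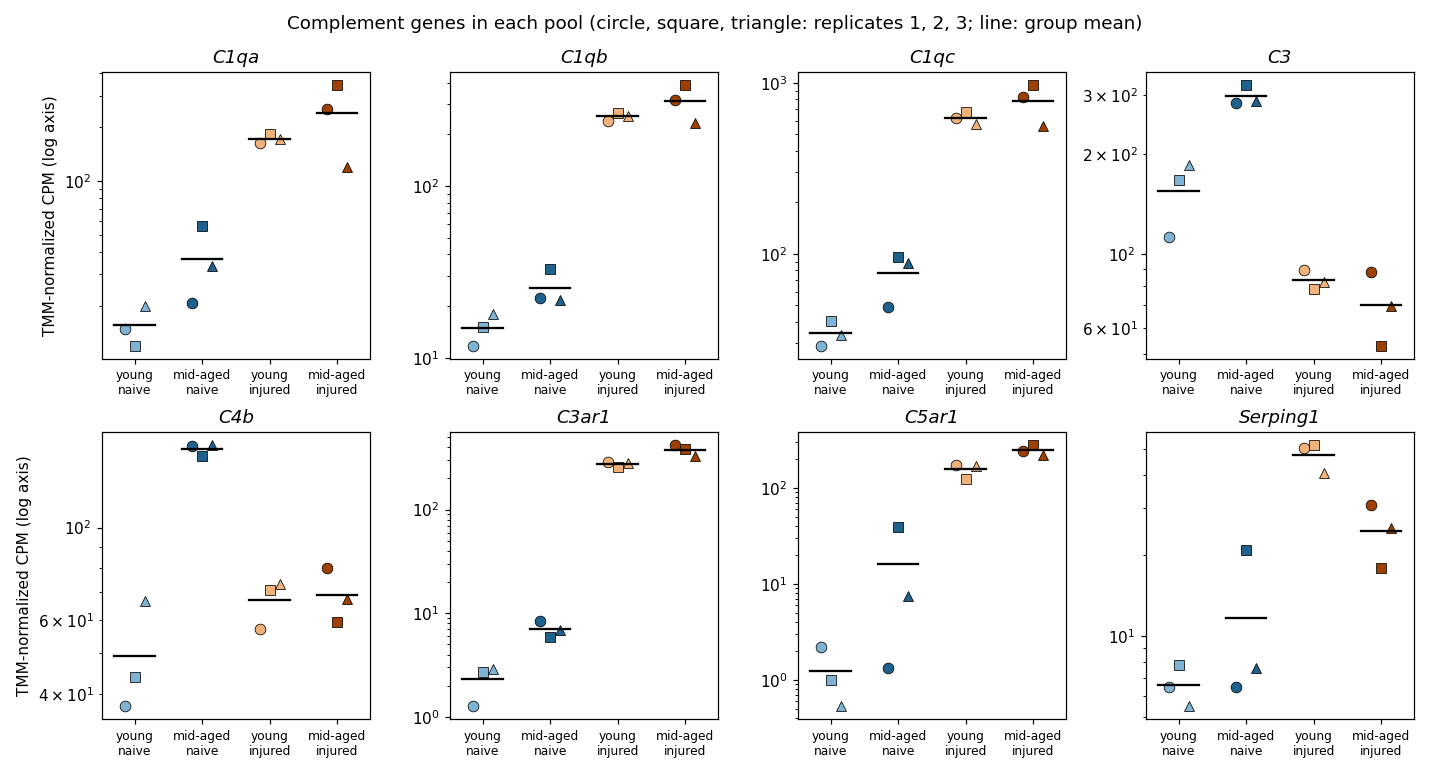
TMM-normalized CPM on log axes for the 8 tested complement genes, 1 point per pool, with the mean of each group as a line. The receptors and C1q chains sit far above both naïve groups after injury, C3 sits below them, and C4b is highest in middle-aged naïve pools (148 to 157 CPM).

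The 3 C1q genes lie side by side on chromosome 4, all on the minus strand. In GRCm38, C1qb spans chr4:136880129-136886187, C1qc chr4:136889804-136893065 and C1qa chr4:136895917-136898803, each with 3 exons. They encode the chains of 1 protein complex, and the promoter stretches of C1qb and C1qc are printed because these neighbours moved together. The letters are RefSeq's, on the GRCm38.p6 build, for chr4:136886201-136886450 and chr4:136893066-136893164 read on the minus strand, and end at the annotated start that lies farthest upstream. Capitals mark the motif AGGAAGT, the core bound by PU.1 and other ETS factors, here on the opposite strand.
C1qb: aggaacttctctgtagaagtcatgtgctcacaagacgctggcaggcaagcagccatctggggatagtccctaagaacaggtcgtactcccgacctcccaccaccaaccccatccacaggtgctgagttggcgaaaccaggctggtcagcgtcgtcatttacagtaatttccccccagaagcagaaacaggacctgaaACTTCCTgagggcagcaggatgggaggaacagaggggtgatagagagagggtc
C1qc: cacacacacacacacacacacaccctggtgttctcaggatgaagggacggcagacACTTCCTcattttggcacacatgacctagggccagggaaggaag
The match began at position -53 from the RefSeq start in C1qb and at -195 in C1qc, and 9.35% of all 32851 RefSeq promoter windows of 300 bases held the motif on either strand.

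C1qb, chain B, was measured at 11.8, 15.05 and 17.96 CPM in the young naïve pools and at 22.3, 32.9 and 21.7 CPM in the middle-aged naïve pools. After injury it stood at 240, 267 and 255 CPM in young and 318, 387 and 233 CPM in middle-aged pools. Each injured pool lay above each naïve pool, and the naïve ages did not overlap. The injury effect was 4.09 ± 0.23 (log2 fold change and standard error, adjusted p = 3.33e-09, edgeR) in young mice and 3.61 ± 0.22 (adjusted p = 6.61e-09) in middle-aged mice. The naïve age difference of 0.78 ± 0.21 missed the threshold (adjusted p = 0.0597, edgeR). It also missed it under 5 of 9 other settings and in 11 of 12 fits with 1 pool left out. The rest passed, among them DESeq2 (adjusted p = 0.0141).

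C1qc, chain C, had 29.1, 40.5 and 33.8 CPM in young naïve pools, and 49.1, 95.6 and 88.4 CPM in middle-aged naïve pools. It reached 619, 673 and 575 CPM in young injured and 828, 971 and 558 CPM in middle-aged injured pools. The naïve groups were apart from the injured groups and from each other, while the injured ages overlapped. Injury raised C1qc by 4.17 ± 0.26 on the log2 scale in young mice (adjusted p = 1.06e-08, edgeR) and by 3.34 ± 0.25 in middle-aged mice (adjusted p = 5.09e-08). It was higher by 1.17 ± 0.24 in middle-aged than in young naïve mice (adjusted p = 0.0152, edgeR), a call that was lost without young naïve replicate 1 (adjusted p = 0.0712) or replicate 3 (adjusted p = 0.0541), and when only the naïve pools were fitted (adjusted p = 0.1003).

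C1qa, chain A, varied most of the 3 chains among the pools of each middle-aged group. Its naïve levels were 14.8, 11.97 and 20.0 CPM in young pools and 20.6, 56.0 and 33.6 CPM in middle-aged pools, with replicate 2 the highest. Its injured levels were 163, 184 and 172 CPM in young pools and 253, 345 and 121 CPM in middle-aged pools. The middle-aged injured pools thus spanned the whole range of the young injured pools, and none of the injured pools overlapped the naïve ones. C1qa rose by 3.48 ± 0.39 in young (adjusted p = 3.13e-06, edgeR) and by 2.71 ± 0.37 on the log2 scale in middle-aged mice (adjusted p = 1.87e-05). Its naïve age difference of 1.24 ± 0.37 missed the threshold (adjusted p = 0.0863, edgeR) and was 0.81 without middle-aged naïve replicate 2.

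The chains kept to narrower ratios than their levels. The CPM ratio of C1qc to C1qb lay between 2.26 and 2.58 in young injured pools and between 2.39 and 2.61 in middle-aged injured pools, and between 1.88 and 4.08 over the naïve pools. The ratio of C1qa to C1qb ranged from 0.674 to 0.688 in young injured pools, from 0.516 to 0.891 in middle-aged injured pools and from 0.795 to 1.70 in naïve pools of either age. Relative to the mean of the 6 pan-myeloid markers, C1qb was within 0.64 and 1.35 on the log2 scale in each of the 12 pools, and C1qc within 1.93 and 2.78. C1qa lay between 0.86 and 1.59 in naïve pools, between 0.23 and 0.28 in young injured pools and between -0.20 and 0.98 in middle-aged injured pools on the same scale. Against single markers among the 6, the ratios moved both ways. Against Csf1r, C1qb went from between -2.11 and -0.89 in naïve to between -0.05 and 0.35 in injured pools. Against Cd68 it went from between -0.17 and 1.43 to between -1.84 and -1.45. C1qc moved in the same directions against these markers. The part of myeloid cell number in the C1q results was not tested.

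C4b encodes the C4 that C1's protease C1s cleaves, at chr17:34728380-34743882 on the minus strand, and its middle-aged naïve pools stood above all others. Young naïve pools had 37.4, 43.9 and 66.7 CPM of C4b, and middle-aged naïve pools 156, 148 and 157 CPM. Injured pools had 57.3, 71.1 and 73.3 CPM in young and 80.0, 59.6 and 67.5 CPM in middle-aged mice. The other 9 pools overlapped among their 3 groups. C4b was higher by 1.65 ± 0.19 on the log2 scale in middle-aged naïve than in young naïve mice (adjusted p = 0.000481, edgeR) and passed the threshold under each other setting and with any pool left out.

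With injury C4b fell in middle-aged mice by 1.16 ± 0.19 on the log2 scale (adjusted p = 9.39e-05, edgeR). In young mice its difference was 0.45 ± 0.19 (adjusted p = 0.0553), with overlapping pools, and passed the threshold when the libraries were scaled by their totals alone, without a filter on low counts, and without young naïve replicate 3, middle-aged naïve replicate 2 or young injured replicate 1. The difference of its injury effects, middle-aged minus young, was -1.61 ± 0.26 (adjusted p = 0.0277, edgeR). That call was kept under the 8 other settings run (adjusted p = 4.93e-06 to 0.0387) and was lost for 8 of the 12 pools when each was omitted in turn, with adjusted p up to 0.128. It was kept without young naïve replicate 3, middle-aged naïve replicate 1 or 2, or young injured replicate 1. In injured mice, C4b differed between the ages by 0.04 ± 0.19 (adjusted p = 0.995), which turned to -0.02 with library totals alone. Of the stretches of 31 bases in C4b transcripts, 48.3% also occur in its neighbour C4a, which had 0 to 4 counts per pool. No source used here gives how shared reads were counted.

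C3, the component on which all pathways converge, lies at chr17:57203970-57228136 on the minus strand and was the tested member that fell with injury at both ages. Its level was 113, 166 and 185 CPM in young naïve pools and 286, 323 and 289 CPM in middle-aged naïve pools. After injury it was 89.8, 78.2 and 82.2 CPM in young and 88.2, 52.9 and 69.6 CPM in middle-aged mice. Each injured pool was below each naïve pool, and the middle-aged naïve pools were above the young ones. C3 fell by 0.89 ± 0.19 on the log2 scale in young mice (adjusted p = 0.00106, edgeR) and by 2.09 ± 0.19 in middle-aged mice (adjusted p = 4.53e-07).

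In naïve mice C3 was higher with age by 0.95 ± 0.19 (adjusted p = 0.0121, edgeR), which was lost when only the naïve pools were fitted (adjusted p = 0.0813). After injury the ages differed by -0.25 ± 0.19 (adjusted p = 0.845). The difference of the injury effects, -1.20 ± 0.27, missed the threshold (adjusted p = 0.105, edgeR) and passed with DESeq2 (adjusted p = 0.00571). The CPM ratio of C3 to C4b went from 2.77 to 3.79 in young naïve pools, from 1.83 to 2.17 in middle-aged naïve, from 1.1003 to 1.57 in young injured and from 0.889 to 1.102 in middle-aged injured pools. Markers of macroglia were also lower after injury. All 6 oligodendrocyte markers and 5 of 6 astrocyte markers (Gfap, Aqp4, Slc1a2, Slc1a3 and Gja1) fell with injury at both ages, and the astrocyte list summed to between 10026 and 12286 CPM in naïve and between 3651 and 5790 CPM in injured pools. The part of these cells in the C3 and C4b results was not tested, and with age in naïve mice 0 of 6 astrocyte markers passed the threshold.

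The promoter of C3 is shown as the counterpart to those of the genes that rose. It is chr17:57228137-57228386, read on the minus strand, with the motif TTGCNNAA of C/EBP factors in capitals.
C3: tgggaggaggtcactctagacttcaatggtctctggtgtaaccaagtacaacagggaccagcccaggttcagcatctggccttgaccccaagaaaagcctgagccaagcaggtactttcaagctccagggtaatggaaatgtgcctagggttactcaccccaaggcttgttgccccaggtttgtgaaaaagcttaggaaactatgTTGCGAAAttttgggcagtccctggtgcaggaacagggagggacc
The motif began at position -45 and was found in 10.8% of all promoter windows.

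Cfb, which encodes factor B, was at or below the floor throughout. Its counts were 0, 1 and 0 in young naïve, 1, 0 and 0 in middle-aged naïve, 0, 2 and 1 in young injured and 3, 1 and 0 in middle-aged injured pools. No fold was taken, and a difference was not detectable at this depth. The gene (chr17:34856374-34862518, minus strand) shares 2246 of its 2825 exon bases with the read-through gene Gm20547 on the same strand, which had 0 counts in each pool. Because reads shared by overlapping genes may have been dropped in counting, the low counts do not give the level of Cfb.

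The receptors rose most. C3ar1 encodes the receptor of C3a, at chr6:122847138-122856161 on the minus strand, and had 1.28, 2.72 and 2.90 CPM in young naïve and 8.45, 5.88 and 6.88 CPM in middle-aged naïve pools. After injury it had 288, 255 and 281 CPM in young and 418, 388 and 327 CPM in middle-aged pools. The 4 groups did not overlap, with both naïve groups below both injured groups and the young group lower within each pair. Injury raised it by 6.91 ± 0.23 in young (adjusted p = 4.62e-11, edgeR) and by 5.74 ± 0.21 on the log2 scale in middle-aged mice (adjusted p = 9.22e-11). With age it was higher by 1.63 ± 0.24 in naïve mice (adjusted p = 0.00233, edgeR). The naïve call was lost when only the naïve pools were fitted (adjusted p = 0.147). In injured mice the age difference of 0.46 ± 0.16 missed the threshold (adjusted p = 0.28, edgeR) and passed it when only the injured pools were fitted (adjusted p = 0.029). The difference of the injury effects, -1.17 ± 0.30, missed it as well (adjusted p = 0.146, edgeR), and DESeq2 called it (adjusted p = 0.0113).

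The C3ar1 promoter is printed because its 4 groups did not overlap. It covers chr6:122856162-122856407, read on the minus strand, and capitals mark TGANTCA, the AP-1 motif, and then an NF-kappaB motif of 10 letters, on the opposite strand.
C3ar1: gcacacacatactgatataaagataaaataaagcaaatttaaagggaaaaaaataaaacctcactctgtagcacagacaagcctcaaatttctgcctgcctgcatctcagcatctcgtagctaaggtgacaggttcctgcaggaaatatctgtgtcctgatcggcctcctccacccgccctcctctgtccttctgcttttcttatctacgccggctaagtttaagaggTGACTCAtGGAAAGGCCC
From the RefSeq start the first began at position -22 and the second at -14, so that they did not overlap. The AP-1 motif was found in 7.81% and the NF-kappaB motif in 1.63% of all promoter windows. RefSeq promoters were found for 5 of the 9 members, and 7 motifs were searched on both strands. The other 3, the motif of ETS-IRF pairs, the interferon response element and the STAT motif TTCNNNGAA, had no match in these 5 windows. The window of C5ar1 held 2 matches to AGGAAGT, at -190 and -72. Its annotated start lies 202 bases upstream of the RefSeq start, so that both matches lie inside the annotated gene. A match describes the letters and does not show that a factor binds there.

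C5ar1 encodes the receptor of C5a, carried by neutrophils, monocytes and microglia, at chr7:16246743-16259540 on the minus strand. Its naïve levels were 2.19, 0.997 and 0.538 CPM in young pools, from 24, 11 and 5 counts, and 1.34, 39.5 and 7.44 CPM in middle-aged pools. Its injured levels were 173, 124 and 167 CPM in young and 242, 277 and 217 CPM in middle-aged pools. No injured pool overlapped a naïve one, the injured ages did not overlap either, and the naïve ages did. In young mice C5ar1 rose by 6.92 ± 0.87 on the log2 scale (adjusted p = 1.06e-05, edgeR), or by 7.61 without young naïve replicate 1. It rose by 3.95 ± 0.68 in middle-aged mice (adjusted p = 0.000163, edgeR), or by 5.75 without middle-aged naïve replicate 2.

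The naïve age difference of C5ar1, 3.63 ± 0.89 (adjusted p = 0.0386, edgeR), rested on middle-aged naïve replicate 2, without which it was 1.83 (adjusted p = 0.0932). Among the fits that omitted 1 pool, the call was kept without middle-aged naïve replicate 1 or 3, and was lost on omitting any of the other 9 pools or fitting only the naïve pools (adjusted p = 0.208). In injured mice the age difference was 0.66 ± 0.58 (adjusted p = 0.903, edgeR), and it passed the threshold when only those pools, which did not overlap, were fitted (adjusted p = 0.0153). Of the 6 neutrophil markers, only S100a8 had enough counts for a test, and it rose with injury at both ages, from 0 counts in each naïve pool to between 10 and 23 in injured pools. Together S100a8, S100a9, Ly6g, Camp, Ngp and Retnlg summed to at most 0.384 CPM in naïve pools and to between 1.05 and 3.07 CPM in injured pools. Markers of monocytes and macrophages (Ccr2, Ly6c2, Ms4a7, Arg1, Fn1 and Plac8) all rose with injury at both ages, from a sum of 31.4 to 79.4 CPM in naïve to 1235 to 1621 CPM in injured pools, with Ccr2 at 0 in young naïve pools and Plac8 at 0 in all naïve pools. Relative to the mean of the pan-myeloid markers, C3ar1 lay between -2.28 and -0.43 in naïve and between 0.75 and 1.24 in injured pools on the log2 scale. Against Csf1r alone it went from between -5.31 and -2.94 to between 0.11 and 0.83. Against Cd68 alone it lay between -2.43 and -0.44 in naïve and between -1.52 and -1.35 in injured pools, which overlapped. The part of these cells in the receptor results was not tested.

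Serping1, at chr2:84765387-84775444 on the minus strand, was highest in young injured mice. It had 6.47, 7.80 and 5.48 CPM in young naïve and 6.43, 20.9 and 7.60 CPM in middle-aged naïve pools. Injured pools had 50.5, 51.6 and 40.5 CPM in young and 30.96, 17.9 and 25.3 CPM in middle-aged mice. Its young injured pools did not overlap any other group, and a middle-aged injured pool (17.9 CPM) was below middle-aged naïve replicate 2. In young mice Serping1 rose by 2.85 ± 0.37 on the log2 scale (adjusted p = 1.55e-05, edgeR). It rose by 1.097 ± 0.35 in middle-aged mice (adjusted p = 0.0151, edgeR), or by 1.81 without middle-aged naïve replicate 2. That call was lost without middle-aged naïve replicate 1 (adjusted p = 0.0566) or 3 (adjusted p = 0.0649), without middle-aged injured replicate 1 (adjusted p = 0.067), and when only the pools compared were fitted (adjusted p = 0.0603).

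Its naïve age difference was 0.81 ± 0.37 (adjusted p = 0.266, edgeR), or 0.09 without middle-aged naïve replicate 2. The difference between middle-aged and young injured pools, -0.94 ± 0.34, did not pass over all genes (adjusted p = 0.286, edgeR), nor did the difference of the injury effects, -1.75 ± 0.50 (adjusted p = 0.202), which was -1.03 without that pool. The age difference in injured mice did pass without middle-aged naïve replicate 2 (adjusted p = 0.0169), without a filter on low counts (adjusted p = 0.0172) and when only the injured pools were fitted (adjusted p = 0.00999). The sum of the fibroblast markers (Col1a1, Col1a2, Col3a1, Dcn and Lum) moved in the same order. It was 62.5 to 104 CPM in naïve, 904 to 1418 in young injured and 402 to 820 in middle-aged injured pools. Between the injured ages only 2 of the 5 (Col1a1 and Col1a2) were called lower with age, against 0.908% of all genes. The pools of Dcn and of Lum overlapped there. The part of fibroblasts in the Serping1 result was not tested. Relative to the mean of the pan-myeloid markers, Serping1 went from between -0.87 and 0.40 in naïve pools to between -1.85 and -1.41 in young injured and between -3.29 and -2.45 in middle-aged injured pools, on the log2 scale. Against Cd68 alone it fell as well. Against Csf1r alone it lay between -3.68 and -1.55 in naïve pools. That range overlapped those of young injured (-2.62 to -2.20) and middle-aged injured pools (-4.09 to -2.86).

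**Figure D2:**
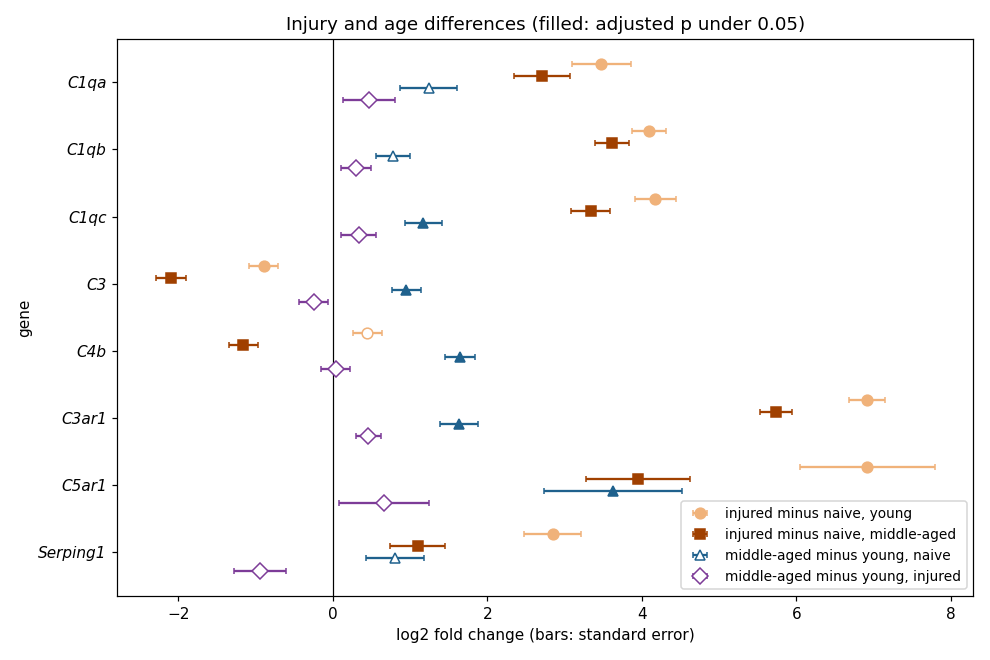
Log2 fold changes with standard errors for each tested complement gene in the 4 comparisons, filled where the adjusted p by edgeR was under 0.05. The injury effects of C5ar1 in young mice (6.92) and of C3ar1 (6.91 and 5.74) are at the far right. Those of C3 (-0.89 and -2.09) are at the left, and no difference between the injured ages is filled.

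Set side by side, the injury effect was smaller or more negative in middle-aged than in young mice for each of the 8 tested genes. It was lower by between 0.48 (C1qb) and 2.96 (C5ar1) on the log2 scale, and of these differences only that of C4b passed edgeR's threshold. Over all 15866 genes tested the median of this difference was -0.046, and 3050 genes had a lower value than C1qb. For the C1q chains these differences were -0.77 ± 0.50 (C1qa), -0.48 ± 0.29 (C1qb) and -0.84 ± 0.33 (C1qc), with adjusted p from 0.397 to 0.672 by edgeR. For C5ar1 it was -2.96 ± 1.09 (adjusted p = 0.358, edgeR), and -1.17 without middle-aged naïve replicate 2. DESeq2 called 4 of the 8 differences (C4b, C3, C3ar1 and Serping1), beside 240 of 13949 genes tested. The naïve age differences, which enter each of these 8 values, ranged from 0.78 to 3.63, and the age differences after injury from -0.94 to 0.66. The pan-myeloid markers had the same sign, with a median difference of the injury effects of -0.88. In middle-aged naïve mice 4 of 6 (Ptprc, Fcer1g, Cd68 and Tyrobp) were higher, against 2.02% of all genes. Whether more myeloid RNA in middle-aged naïve tissue has a part in the members' differences was not tested.

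Per kilobase of exon, the order of the members turned over with injury. C3 had the highest level per length in naïve tissue, 30.1 ± 7.3 CPM per kb (SD, n = 3) in young and 58.1 ± 4.0 in middle-aged mice, and did not overlap the next, C1qc, at 17.8 ± 3.0 and 40.2 ± 12.9. The neighbours C1qc, C1qa and C1qb overlapped in young naïve pools, as did C1qb and C4b. In young injured pools C1qc led with 322 ± 25 CPM per kb, then C1qb with 233 ± 13 and C1qa with 166 ± 9.9, none of which overlapped. The receptors followed at 63.8 ± 4.1 (C3ar1) and 60.3 ± 10.3 (C5ar1) and overlapped. In middle-aged injured pools the order began in the same way, with C1qc at 407 ± 109, C1qb at 288 ± 71 and C1qa at 230.3 ± 109, but these neighbours overlapped, and C5ar1 (95.4 ± 11.7) and C3ar1 (87.8 ± 10.8) came next.

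As a share of the summed CPM per kb of the 9 members, C3 made up 25.3% to 36.0% in naïve pools and 0.726% to 1.98% in injured pools. C1qc went from between 16.5% and 24.2% to between 34.1% and 37.6%. The share of C3ar1 went from at most 1.27% to between 6.37% and 9.32%, and that of C4b from between 8.49% and 17.8% to between 0.738% and 1.47%. A share also depends on the other members. In young mice the level of C4b did not fall, with means of 49.3 CPM in naïve and 67.2 CPM in injured pools. The share of C1qa was 12.7% to 21.7% in naïve and 14.2% to 23.4% in injured pools, so that its ranges overlapped. Middle-aged naïve replicate 2 had the highest C5ar1 share among the naïve pools, 6.19%.

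**Figure D3:**
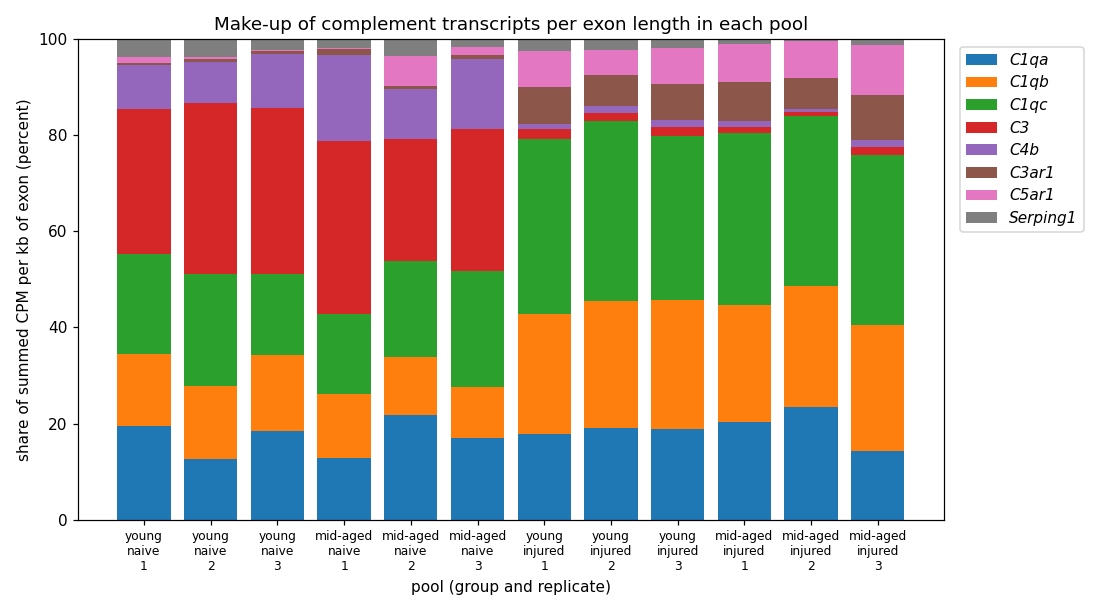
Share of each complement gene in the summed CPM per kb of exon, in percent, 1 stacked bar per pool. C3 takes 25.3% to 36.0% of naïve bars and at most 1.98% of injured bars, where the C1q chains take most of the length-scaled signal.

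The rest of the pathway showed which steps moved with these members. Of 42 further complement genes, 22 could be tested. In young mice 10 rose with injury and 7 fell, and in middle-aged mice 10 rose and 9 fell, beside the shares of all genes given above. With age in naïve mice 5 were higher, among them Cr1l, Itgb2, C5ar2 and Itgam, and 1 lower (Masp1). Between the injured ages the lowest adjusted p among the 22 was 0.0689 (Vtn, edgeR), and for the difference of the injury effects it was 0.148 (Vtn).

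On the classical arm, the C1 proteases rose with the C1q chains. C1ra rose by 3.42 ± 0.53 in young and 4.08 ± 0.54 on the log2 scale in middle-aged mice (adjusted p = 7.01e-05 and 1.54e-05, edgeR), and C1s1 by 1.62 ± 0.60 and 1.74 ± 0.65 (adjusted p = 0.0336 and 0.0318). C1ra had 2 to 7 counts in naïve pools, around the floor of 3 counts, and 31 to 74 in injured pools. C1s1 had 4 to 28 counts in naïve and 15 to 71 in injured pools, so that both sizes rested on few naïve counts. C2, which is cleaved with C4, had 1 to 10 counts per pool and was not tested. The lectin arm had 3 tested genes of 8. Masp1, a protease that starts this arm, fell by 1.04 ± 0.21 and 0.86 ± 0.22 in young and middle-aged mice, and Masp2 fell by 0.85 ± 0.23 in middle-aged mice (adjusted p = 0.00595, edgeR). The recognition protein gene Fcna rose in the test at both ages, from 0 to 4 counts in naïve pools to 13 to 26 counts in injured pools.

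The alternative arm was split. Cfp, which encodes properdin, the stabilizer of the C3-cleaving enzyme made by leukocytes, rose by 4.13 ± 0.35 in young and 4.50 ± 0.34 in middle-aged mice (adjusted p = 2.1e-07 and 5.29e-08, edgeR), while C3 fell. Of the terminal arm, 2 of 7 genes were tested. Hc, which encodes C5, had a difference of -0.92 ± 0.53 in young mice (adjusted p = 0.158, edgeR) and fell by 1.42 ± 0.56 in middle-aged mice (adjusted p = 0.041). The fall rested on few counts, 13, 14 and 17 in middle-aged naïve and 6, 3 and 9 in middle-aged injured pools.

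Among receptors, 6 of 6 tested genes rose at both ages, C3ar1 and C5ar1 included. The decoy-like second C5a receptor C5ar2 rose by 3.61 ± 0.29 in young and 2.62 ± 0.26 in middle-aged mice. Itgam and Itgb2, which form complement receptor 3, rose by 4.43 ± 0.27 and 5.12 ± 0.22 in young mice, and by 3.91 ± 0.26 and 4.46 ± 0.20 in middle-aged mice. Itgax, the alpha chain of complement receptor 4, rose by 5.61 ± 0.68 and 3.77 ± 0.54. Its naïve baseline was low and uneven, with 5, 6 and 4 counts in young and 28, 1 and 66 counts in middle-aged pools. The median over the 6 was 5.36 in young and 3.93 in middle-aged mice. The pan-myeloid list had medians of 4.50 and 3.46.

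Of 11 regulators tested, 3 rose at both ages, a share near that of all genes, and 6 fell at both ages. Besides Serping1, Cr1l, the gene of the membrane regulator Crry, rose by 0.74 ± 0.13 in young and 0.52 ± 0.13 in middle-aged mice. The membrane regulator genes Cd55, Cd46 and Cd59a fell by 1.29 ± 0.27, 0.90 ± 0.33 and 1.14 ± 0.16 in young mice and by 2.17 ± 0.28, 1.58 ± 0.32 and 1.53 ± 0.16 in middle-aged mice. Susd4 fell by 1.87 ± 0.26 and 1.95 ± 0.27, and the fluid-phase regulators Clu (clusterin) and Vtn (vitronectin) by 0.89 ± 0.13 and 0.63 ± 0.22 in young and by 1.02 ± 0.13 and 1.85 ± 0.23 in middle-aged mice. Adjusted p-values of these falls ranged up to 0.0322 (Cd46 in young mice, edgeR).

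**Figure D4:**
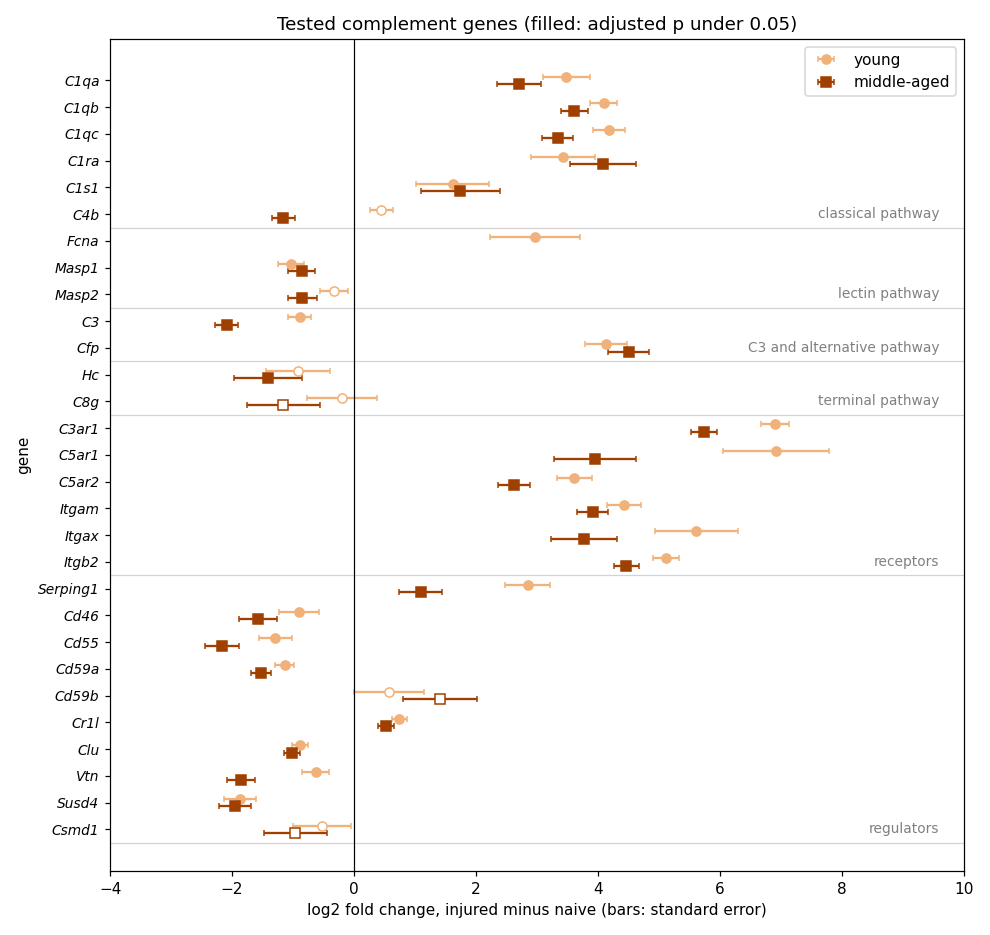
Injury effects (log2 fold change, injured minus naïve, with standard errors) of tested complement genes in young (circles) and middle-aged mice (squares), grouped by arm and filled where the adjusted p by edgeR was under 0.05. All 6 receptors lie to the right of 0, regulators lie on both sides, and Fcna has no square because its middle-aged naïve pools held 0 counts.

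The genes whose level followed each member most closely over the 12 pools were taken among 13077 genes, by the SD of the log2 CPM difference to the member. For C1qc the closest was Trem2, a microglial lipid receptor (SD 0.14, beside an SD of 2.04 for C1qc itself), followed by Ctsz and Tyrobp. For C1qb they were Tbxas1 (SD 0.15), Arhgdib and Lpl. C1qa was followed less closely, by H6pd (SD 0.34), Nfam1 and Fermt3. The nearest genes to C3ar1 were Atf3 (SD 0.29), F13a1 and Cd22, and to C5ar1 the chemokine gene Ccl3 (SD 0.57), Anxa1 and Ch25h.

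Among the other members, C3 was tracked by Efcab14 (SD 0.24), Tmprss5 and Ldb3, with an SD of 0.89 for C3 itself. Nearest to C4b was 3222401L13Rik (SD 0.33), then Neat1 and Hsd3b2, with an SD of 0.68 for C4b itself. Serping1 was nearest to Lama4, a laminin chain (SD 0.40), Bard1 and Tacc3. These are likenesses over pools that share 4 group levels, given without a test.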

How the data were processed

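RNA of laser-captured spinal cord white matter was pooled from 5 mice per library and amplified with REPLI-g chemistry while libraries were built, so that intervals and floors cover counting error only. The authors checked reads with FastQC 0.11.4, used TopHat 2.0.10 with bowtie 1.1.2 to map them to GRCm38, and deposited a raw count for each gene, made with featureCounts. The annotation release, strand setting and treatment of shared reads are not given in the sources used here. Groups and replicate numbers came from the sample titles.

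From these counts, edgeR 4.0.16 (R 4.3.3) was run on all 12 pools with TMM factors, filterByExpr and 1 coefficient per group, and p-values were adjusted over 15866 genes. Standard errors were taken as the size of the log2 fold change over the root of the F statistic, and log2 CPM had a prior count of 2. Gene positions and exon lengths are from GENCODE on GRCm38, and 45229 of 46078 identifiers had a position. Alternatives were DESeq2 1.42.0, other scalings and filters, mitochondrial genes left out, only the pools compared, the replicate number as a block, and each pool left out. These steps were first tested on simulated data. The members and lists were chosen with earlier results of these data known. Named genes were the 9 members, genes of the fixed complement and marker lists, and the 3 genes most like each member. The result for 1 further complement gene, which is in the counts, is not reported here.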

Additional observations from a re-analysis of the deposited data

Results flagged for a closer look

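The injury effect on C4b differed between the ages: the test of the difference itself gave -1.61 on the log2 scale, middle-aged minus young (standard error 0.26, adjusted p = 0.0277, edgeR). C4b fell in middle-aged mice (-1.16) and had a difference of 0.45 in young mice, with middle-aged naïve pools at 148 to 157 CPM and the other 9 pools at 37.4 to 80.0 CPM. Leaving out 1 pool ended the call in 8 of 12 fits. No other complement member passed this test. With groups of 3 pools, single pools were not tested as outliers.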

How the results depend on the processing

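Of 832 values of single members under other settings, 774 kept their direction and their side of the threshold, 29 lost a call, 26 gained one and 3 changed sign. The counts of members changed by injury lay between 7 and 8 with each pool left out, at both ages. For age in naïve mice the count was 5, 1 (C4b) when only those pools were fitted, and 3 to 6 with a pool left out. For age in injured mice it was 0, 1 (Serping1) without a filter on low counts, 3 (C3ar1, C5ar1 and Serping1) when only those pools were fitted, and 0 to 1 with a pool left out. For the difference of the injury effects it was 1, 4 with DESeq2, 5 without a filter, and 0 to 1 with a pool left out. The age difference of C4b in injured mice changed sign with library totals alone (-0.020) and lay between -0.072 and 0.14 with a pool left out. The cause of these changes was not tested.

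Over all genes, age in naïve mice called 603, against 1085 with DESeq2, 1153 without a filter and 71 when only those pools were fitted. Age in injured mice called 182, against 446, 437 and 818 in the same order, and the difference of the injury effects 22, against 240 with DESeq2 and 329 without a filter. Library totals alone moved the median over all genes to 0.197 for injury in young mice and to -0.132 for the difference of the injury effects. Same-numbered pools did not deviate together (correlations from -0.113 to 0.153), and 0 to 1 of the 3 pools in a comparison correlated best with its own number, so the numbers were not taken as pairs. With the replicate number as a block, the counts of members were 8, 8, 5, 0 and 1 in the order of the comparisons above, C4b in young injured mice (adjusted p = 0.0428, edgeR) and C1qb in naïve mice with age (0.0495) gained a call, and C5ar1 in naïve mice with age lost it (0.0606).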
